A study of Mus musculus with 5 samples.

Results

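Cells write cytosine methylation into DNA with the DNMT enzymes and remove it through the TET enzymes. Dnmt1 copies existing methylation after replication, and Uhrf1 binds the half-methylated daughter DNA and brings Dnmt1 to it. Dnmt3a and Dnmt3b place methylation on unmethylated DNA, and Dnmt3l, which has no catalytic activity of its own, stimulates both. Tet1, Tet2 and Tet3 oxidize methylated cytosine with 2-oxoglutarate as a cosubstrate, which opens the way to its loss by repair or by replication. In mouse embryonic stem cells (ESCs) the naive state is known for low DNA methylation, and the primed epiblast for more of it. These 8 genes were followed here through their transcripts, and DNA methylation itself was not measured.

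The 8 genes were found by their symbols among the probe sets of an Affymetrix Mouse Gene 1.0 ST array that are annotated with exactly 1 gene symbol. A probe set is a group of short probes along a gene. They held 11 of the 21789 such probe sets and were 8 of the 19938 genes these stand for. Each gene is given by its brightest probe set. Tet1 had 3 probe sets, Tet3 had 2 and each of the others had 1. Expression was measured on 5 arrays. One held parental ESCs of the B6CBAF1 hybrid line (C57BL/6 mother, CBA/ca father) before injection. The other 4 held ESC-like cells, which were grown in ESC medium out of teratomas retrieved 5 weeks after subcutaneous injection of those ESCs. In the homologous condition the recipient was a B6CBAF1 mouse, and in the heterologous condition it was a B6D2F1 mouse (C57BL/6 mother, DBA2 father), with ESCs alone in both. In the co-injection condition the B6D2F1 recipients received 4 parts of ESCs mixed with 1 part of fetal fibroblasts of their own strain, and 2 arrays of these cells were run, named batch 1 and batch 2. The study injected the same total number of cells in each condition, so fewer ESCs were given with fibroblasts. The part of that lower ESC number and that of the fibroblasts cannot be told apart. All populations grew on growth-arrested ICR fetal fibroblasts, and the age of the recipients is not given in the sources used here. By the study's methods the teratoma-derived cells received more leukemia inhibitory factor than parental ESCs, so its part and that of passage through a teratoma cannot be told apart. The heterologous cells can stem from 1 teratoma at most, as only 1 formed in that condition. The study treats the co-injection batches as separate lines of ESC-like cells, but whether they came from separate teratomas is not stated, so their spread may not be that between animals. In the study's wording the batch number follows the fetal fibroblasts. Whether the 2 arrays differ in the fibroblast lot is not stated, so a part of it in their spread cannot be told apart.

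Values are log2 expression values, and a gene was called when its difference exceeded 2-fold, or 1 on the log2 scale. Only co-injection had a second array, so the differences are given as values by this rule. The one test run, limma over all genes with 1 residual degree of freedom, put 0 of the 19938 genes past an adjusted p of 0.05 in any of the 6 comparisons between conditions, while 3530 to 6842 genes were under an unadjusted p of 0.05. SDs are those of the 2 co-injection arrays. All differences from parental ESCs share the one parental array. Over all probe sets the lowest correlation between any pair of arrays was 0.979. All 12 ESC marker genes lay above the median of all values, 7.49, in each of the 5 arrays. Heterologous cells nevertheless had 3 of the 12 more than 2-fold below parental ESCs: Zfp42 (−1.63), Esrrb (−1.18) and Fgf4 (−1.11). For homologous cells, and likewise for co-injection cells, 0 of the 12 passed 2-fold. Over all genes 1.95%, 1.6% and 1.44% were more than 2-fold lower in the heterologous, homologous and co-injection comparisons. The median ESC marker difference from parental ESCs was −0.36 for heterologous, −0.19 for homologous and −0.14 for co-injection cells. The fibroblast markers stood out in the heterologous array, where 17 of 24 exceeded parental ESCs by over 2-fold. In the homologous array 2 did so, and in the mean of the co-injection batches 1. The shares over all genes were 3.98% in the heterologous, 1.45% in the homologous and 0.647% in the co-injection comparison. On the log2 scale the summed linear level of those 24 genes was 15.49 in the heterologous array and between 14.10 and 14.57 in the other 4. Macrophage markers stayed low, with 1 of 9, the same number in each array, above the median of all values. In bulk RNA, fewer cells of a type and less RNA per cell cannot be told apart.

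The start sites of the genes with the widest differences are shown first. The probe set of Dnmt3a does not tell transcripts from its start sites apart, so the 250 bases before 2 of its start sites are given, together with those before 1 start site each of Tet2 and Dnmt3l. Sequences and positions are those of RefSeq on GRCm38.p6, 5′ to 3′ on the strand of the gene, and capitals mark CG, the dinucleotide that the DNMT enzymes methylate. The upstream Dnmt3a window is chr12:3806730-3806979 (+), the internal one chr12:3891494-3891743 (+), that of Tet2 chr3:133544391-133544640 (−) and that of Dnmt3l chr10:78042037-78042286 (+).
Dnmt3a, upstream start: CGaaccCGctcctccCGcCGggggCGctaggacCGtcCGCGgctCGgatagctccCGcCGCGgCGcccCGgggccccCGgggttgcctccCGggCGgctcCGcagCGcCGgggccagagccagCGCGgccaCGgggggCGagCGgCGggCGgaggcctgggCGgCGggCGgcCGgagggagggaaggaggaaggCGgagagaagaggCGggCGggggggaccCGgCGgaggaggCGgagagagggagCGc
Dnmt3a, internal start: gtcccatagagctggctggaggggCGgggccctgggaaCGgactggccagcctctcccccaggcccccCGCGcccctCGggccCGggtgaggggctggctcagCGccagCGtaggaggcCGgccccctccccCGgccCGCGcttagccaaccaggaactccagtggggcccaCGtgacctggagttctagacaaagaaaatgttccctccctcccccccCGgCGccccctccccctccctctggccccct
Tet2: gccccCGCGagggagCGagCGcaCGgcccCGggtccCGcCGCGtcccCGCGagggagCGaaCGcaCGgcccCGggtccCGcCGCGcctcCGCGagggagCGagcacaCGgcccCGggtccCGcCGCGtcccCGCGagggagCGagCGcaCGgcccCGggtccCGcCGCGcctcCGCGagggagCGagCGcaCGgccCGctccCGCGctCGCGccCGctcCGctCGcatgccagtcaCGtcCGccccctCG
Dnmt3l: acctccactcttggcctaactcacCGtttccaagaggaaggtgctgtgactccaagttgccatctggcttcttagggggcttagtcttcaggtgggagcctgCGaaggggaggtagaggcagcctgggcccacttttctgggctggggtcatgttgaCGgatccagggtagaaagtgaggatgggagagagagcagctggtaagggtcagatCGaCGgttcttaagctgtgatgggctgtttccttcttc

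In these windows CG occurred 38 times before the upstream start of Dnmt3a, 15 times before the internal one, 51 times for Tet2 and 5 times for Dnmt3l. CG reads the same on both strands, and the search counted each once. Over the full RefSeq windows of 300 bases, which reach 50 bases beyond the start site, Tet2 had 57, and 0.152% of all 32851 promoter windows had at least as many. The upstream Dnmt3a window had 46 (1.65% of windows had at least as many) and the internal one 18 (29.7%). Dnmt3l lay at the other end, with 6, 4 and 3 in its 3 windows, below the median of 7 over all windows. The remaining genes ranged from 2 in one Dnmt1 window to 33 in another one and in one of Uhrf1, with 30 for Dnmt3b, 22 for Tet3 and 17 for Tet1. These counts describe the sequence and say nothing of methylation in these cells.

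Dnmt3a was the gene with the widest range, 1.43 on the log2 scale. Its log2 value was 9.26 in parental ESCs, 10.36 in the homologous array, 10.69 in the heterologous array, and 10.68 and 10.49 in the co-injection arrays. All 4 ESC-like arrays lay above parental ESCs, and the smallest gap, in the homologous array, was wider than the whole range among the ESC-like arrays. The difference from parental ESCs was 1.10 on the log2 scale (2.15-fold higher) in the homologous array, 1.43 (2.69-fold) in the heterologous array and 1.32 ± 0.13 (SD, n = 2; 2.50-fold) for co-injection. Dnmt3a was thus called higher in each of the 3 comparisons. Among the ESC-like cells, batch 1 of co-injection minus the heterologous array gave −0.01 and batch 2 minus it −0.20, beside a gap of 0.184 between the batches. The homologous array was lowest, and the batches lay 0.31 and 0.13 above it.

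Dnmt3b differed in the same direction by less. It stood at 10.50 in parental ESCs, 11.26 in the homologous array, 10.88 in the heterologous array, and 11.23 and 11.07 in the co-injection arrays. The ESC-like arrays again all lay above parental ESCs, but none by 2-fold. The differences were 0.76 on the log2 scale in the homologous array (1.69-fold), 0.38 in the heterologous array (1.30-fold) and 0.65 ± 0.12 (SD, n = 2; 1.57-fold) for co-injection. The order of the conditions was not that of Dnmt3a: the heterologous array, highest for Dnmt3a, was the lowest of the ESC-like arrays for Dnmt3b, 0.37 below the homologous array. Batch 1 of co-injection minus the homologous array gave −0.02 and batch 2 minus it −0.19, beside a gap of 0.164 between the batches.

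Dnmt3l, the cofactor of both enzymes, lay on the other side of parental ESCs. Its log2 value was 12.24 in parental ESCs, 11.70 in the homologous array, 11.34 in the heterologous array, and 11.84 and 11.64 in the co-injection arrays. All 4 ESC-like arrays were below parental ESCs, with the heterologous array lowest. The differences were −0.54 (1.45-fold lower) in the homologous array, −0.90 (1.86-fold lower) in the heterologous array and −0.50 ± 0.14 (SD, n = 2; 1.41-fold lower) for co-injection, none past 2-fold. The homologous value fell between the co-injection batches, so those conditions were not separated by this gene.

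**Figure D1:**
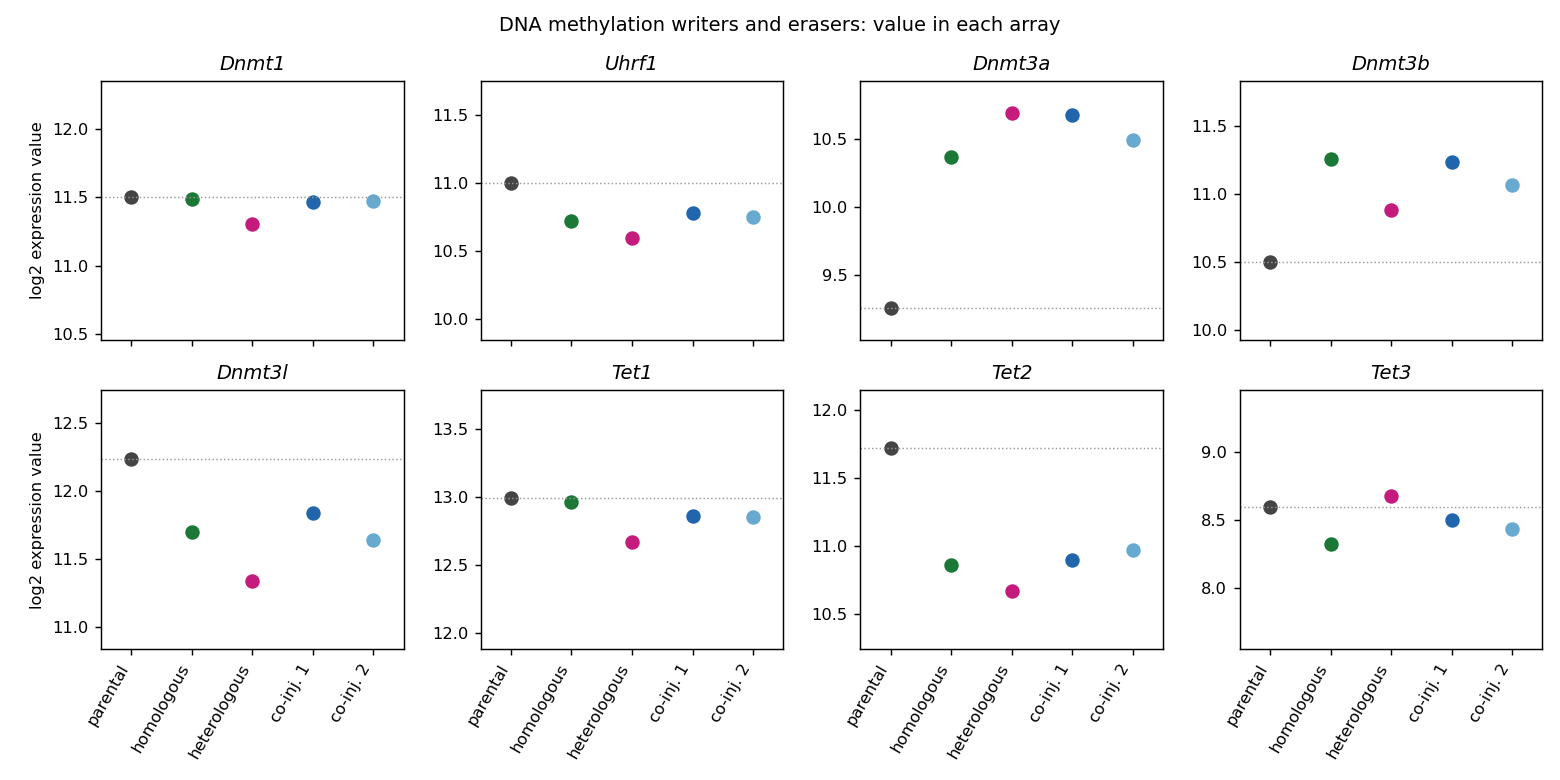
Log2 expression value (vertical axis, each panel spanning the same width of scale) of each gene in the 5 arrays (horizontal axis, co-inj. 1 and 2 are the co-injection batches), with 1 point per array and the parental value as a dotted line. Dnmt3a and Dnmt3b lie above the line in all 4 ESC-like arrays, and Uhrf1, Dnmt3l and Tet2 lie below it. Dnmt1 and Tet1 also lie below it, in the homologous array by only 0.02 and 0.04.

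The genes of methylation maintenance differed little. Dnmt1 was at 11.50 in parental ESCs, 11.49 in the homologous array, 11.30 in the heterologous array, and 11.46 and 11.47 in the co-injection arrays. Only the heterologous array stood apart from the others, 0.20 below parental ESCs. For Uhrf1 the values were 11.00 in parental ESCs, 10.72 in the homologous array, 10.60 in the heterologous array, and 10.78 and 10.75 in the co-injection arrays. Each ESC-like array was below parental ESCs, with log2 differences of −0.28 for homologous, −0.40 for heterologous and −0.23 ± 0.020 (SD, n = 2) for co-injection cells, or at most 1.32-fold. Both transcripts are known to peak with DNA replication, and 21 genes of S phase and cycling cells were set beside them. None of the 21 passed 2-fold in a comparison with parental ESCs, where between 0.647% and 3.98% of all genes did in either direction. Their median difference was −0.08 for homologous cells, −0.18 for heterologous cells and −0.04 for co-injection cells, beside −0.01, −0.04 and 0.04 over all genes. In the heterologous array 1 of the 21, Rrm1 of the ribonucleotide reductase, was above parental ESCs, at 0.05, a gene singled out after its value was seen. In the homologous array 5 of the 21 were above parental ESCs, and in the co-injection mean 8. Most of this list thus lay below parental ESCs in each condition, and its part in the values of Dnmt1 and Uhrf1 was not tested.

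Among the erasers, Tet2 had the widest difference from parental ESCs. It was at 11.72 in parental ESCs, 10.86 in the homologous array, 10.67 in the heterologous array, and 10.89 and 10.97 in the co-injection arrays. The ESC-like arrays spanned 0.30, and all lay below parental ESCs. The log2 difference from parental ESCs was −1.05 for heterologous cells (2.07-fold lower), which passed 2-fold. It was −0.86 for homologous cells (1.82-fold lower) and −0.79 ± 0.055 (SD, n = 2; 1.73-fold lower) for co-injection cells, which did not pass. A call in 1 condition alone does not show that the conditions differed, and the heterologous array minus the homologous one gave −0.19.

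Tet1 is a TET gene with a CXXC domain and abundant transcript in ESCs. It was at 13.00 in parental ESCs, 12.96 in the homologous array, 12.67 in the heterologous array, and 12.86 in both co-injection arrays. It lay near the top of the scale, where the highest value of any probe set was 13.97, and 1.13% of probe sets were brighter. The heterologous array was lowest, 0.33 below parental ESCs, and the other 3 were at most 0.14 below. Over its 3 probe sets the heterologous difference ran from −0.53 to −0.33, the homologous one from −0.09 to −0.04 and the co-injection one from −0.17 to −0.14, so the direction was the same in each. In 2 of these probe sets both co-injection arrays held exactly the same value, as did 1768 of all 35556 probe sets, so their SD of 0 is not a measure of error.

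Tet3 was dimmer, with 34.3% of probe sets brighter than it. Its values were 8.60 in parental ESCs, 8.33 in the homologous array, 8.68 in the heterologous array, and 8.50 and 8.44 in the co-injection arrays. This was the only member without 1 direction in the ESC-like cells: the heterologous array was 0.08 above parental ESCs, while the homologous array gave −0.27 and the co-injection arrays −0.13 ± 0.044 (SD, n = 2). Its second probe set gave 0.03, −0.56 and −0.22 in that order, the same signs.

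In the comparisons with parental ESCs, 1 of the 8 genes, Dnmt3a, was more than 2-fold higher in the homologous array, where 1.45% of all 19938 genes were, and none was more than 2-fold lower, against 1.6% of all genes. In the heterologous array 1 was higher and 1, Tet2, lower, against 3.98% and 1.95% of all genes. In the co-injection mean 1 was higher and none lower, against 0.647% and 1.44%. The median size of the difference, without its sign, was 0.41 in the homologous array over the 8 genes and 0.13 over all genes. It was 0.39 against 0.16 in the heterologous array and 0.37 against 0.13 in the co-injection mean. The mean of each of the 8 genes lay above 7.49, the median of all values, and the comparison over all genes, dim ones included, is a description.

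**Figure D2:**
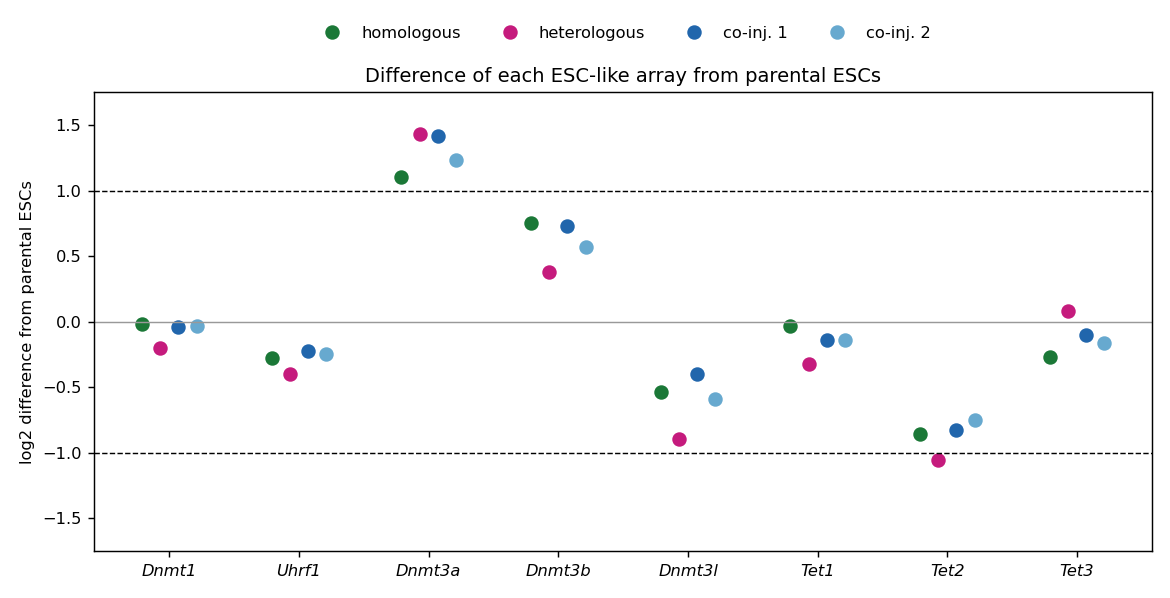
Log2 difference from parental ESCs (vertical axis) of each gene (horizontal axis) in the 4 ESC-like arrays, 1 point per array, with dashed lines at 2-fold. Dnmt3a exceeds the upper line in all 4 arrays, with 1.10 as its lowest value, and Tet2 passes the lower line in the heterologous array at −1.05.

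None of the 8 genes passed 2-fold between conditions of ESC-like cells. Heterologous against homologous cells, which differ in the recipient strain, ranged from −0.37 for Dnmt3b to 0.35 for Tet3, while 2.41% of all genes were more than 2-fold higher and 0.647% lower. Co-injection against heterologous cells ranged from −0.21 for Tet3 to 0.40 for Dnmt3l, while 0.361% of all genes were higher and 2.99% lower. These conditions differ in the co-injected fibroblasts and in the number of ESCs injected. For 6 of the 8 genes the co-injection mean lay above the heterologous array, and for Dnmt3a and Tet3 below it. The median over all genes was 0.07 in this comparison, also above 0, so the count is not a result about these genes. Co-injection against homologous cells ranged from −0.11 for Dnmt3b to 0.22 for Dnmt3a, with a median size of 0.09 against 0.20 and 0.31 in the other two comparisons of ESC-like cells, while 0.0752% of all genes were higher and 0.351% lower. In all 8 genes both batches lay on the same side of the heterologous array, as in 83.4% of all genes. In 7 of them the co-injection mean lay farther from that array than the batches from each other, as in 71.2% of all genes, so neither count is a result about these genes. For Tet1 the distance was 0.185 against 0.0038 between batches, for Dnmt1 0.166 against 0.00993, and for Dnmt3l 0.401 against 0.195. Dnmt3a was the exception, with 0.104 against 0.184. The heterologous condition has 1 array, so its own spread is not part of these figures.

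Between the co-injection batches the 8 genes differed by at most 0.195, in Dnmt3l, and none passed 2-fold, as 0.00502% of all genes did. Over all genes the median size of the difference was 0.0671. Dnmt3a, Dnmt3b and Dnmt3l, the de novo enzymes and their cofactor, differed by 0.184, 0.164 and 0.195, and the other 5 genes by at most 0.0776, the value of Tet2. Batch 1 was higher in Dnmt3a, Dnmt3b and Dnmt3l, and also in Uhrf1, Tet1 and Tet3. This pair is the only estimate of spread in the series.

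To show what the region around a gene did, each was set beside its neighbours in gene order, 20 on each side among the named genes above the median of all values. Dnmt3a lies near the start of chromosome 12 and had only 6 such genes before it. Its 26 neighbours had median differences from parental ESCs of 0.02 in the homologous array, 0.0078 in the heterologous array and −0.0023 in the co-injection mean, and none exceeded Dnmt3a in any of them. The 40 neighbours of Tet2 on chromosome 3 had medians of −0.0037, 0.07 and 0.0025, with 1 of them below Tet2 in the homologous array and 0 in the others. For Dnmt3b on chromosome 2 the medians were −0.11, −0.06 and −0.08, and 0, 3 and 0 of the 40 neighbours exceeded it. For Dnmt3l on chromosome 10 they were −0.07, −0.03 and 0.0065, with 1, 1 and 3 neighbours below it. Over whole chromosomes the median was 0.24 for chromosome 12 in the heterologous array and between −0.08 and 0.07 for every other pair of a comparison with parental ESCs and a chromosome that carries 1 of the 8 genes. Dnmt3a passed 2-fold in the homologous and co-injection cells too, where the median of chromosome 12 was 0.0094 and 0.03. The part of chromosome 12 as a whole in the heterologous value was not tested.

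**Figure D3:**
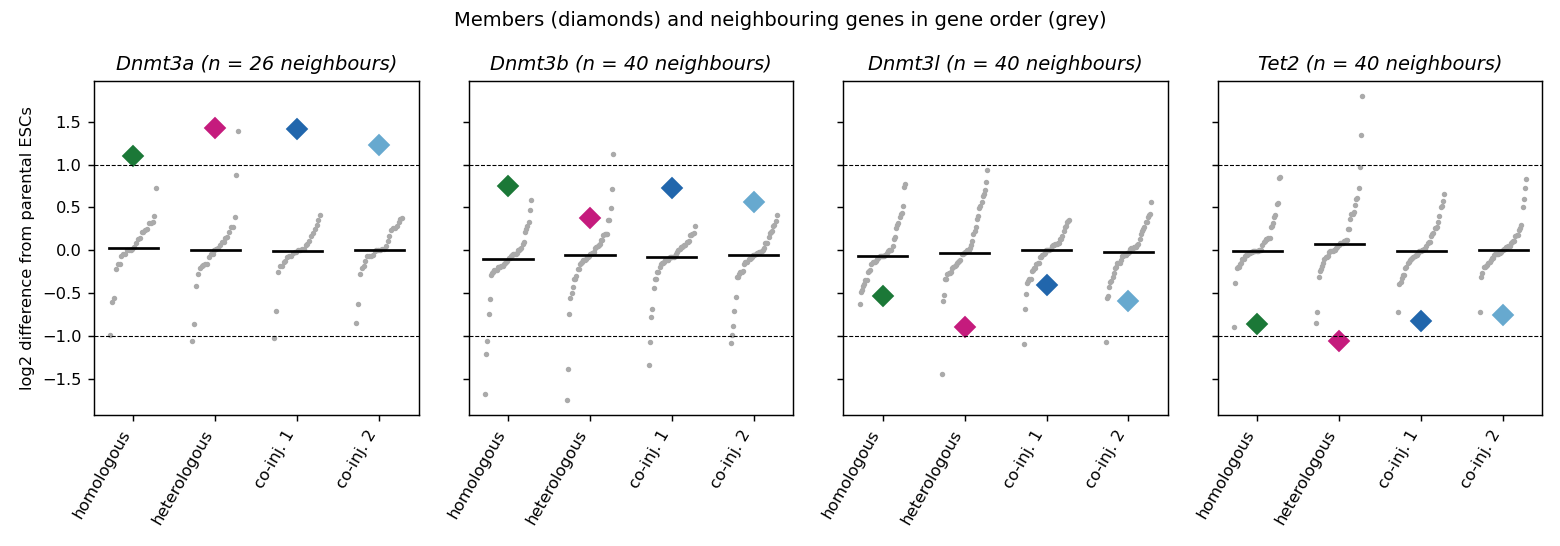
Log2 difference from parental ESCs (vertical axis) of 4 genes (diamonds) and of the genes next to them in gene order (grey points, sorted, with their median as a bar) in the 4 ESC-like arrays (horizontal axis). The medians of the neighbours stay near 0 while Dnmt3a lies above all of its 26 neighbours in each array.

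Fibroblast markers were highest in the heterologous array, as given above, and the heterologous values of Dnmt1, Uhrf1, Dnmt3l, Tet1 and Tet2 were the lowest of the 5 arrays, while those of Dnmt3a and Tet3 were the highest. The median difference of the 24 fibroblast markers from parental ESCs was 1.70 for heterologous cells, 0.40 for homologous cells and −0.13 for co-injection cells. The last had 1 marker past 2-fold higher and 3 lower, against 0.647% and 1.44% of all genes. In homologous and co-injection cells Dnmt3a was past 2-fold too, and Tet2 stood at −0.86 and −0.79. The part of fibroblast RNA in the heterologous values was not tested.

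Genes known to act around the DNMT and TET enzymes were followed as lists. Of 18 chromatin partners of maintenance and silencing, such as Hells and Trim28, none passed 2-fold in a comparison with parental ESCs, and differences ran from −0.72 to 0.58. Of 8 readers of methylated DNA, such as the MBD proteins, none passed, with a range from −0.39 to 0.65. None of 13 genes of base excision and active demethylation passed either, with a range from −0.75 to 0.91. Of 12 partners and cosubstrate suppliers of the TET enzymes, 1 passed: Idh2, a mitochondrial enzyme that makes 2-oxoglutarate, was at −1.15 for heterologous, −0.48 for homologous and −0.56 ± 0.052 (SD, n = 2) for co-injection cells. None of 16 genes of one-carbon and methyl donor metabolism passed, with a range from −0.95 to 0.51. Over all genes 1.45%, 3.98% and 0.647% were more than 2-fold higher in the homologous, heterologous and co-injection comparisons, and 1.6%, 1.95% and 1.44% lower. With lists this small, counts of 0 or 1 are not a result about their genes. The list medians in the comparisons with parental ESCs lay between −0.18 and 0.09, beside medians over all genes of −0.01 in the homologous, −0.04 in the heterologous and 0.04 in the co-injection comparison.

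The list of factors that set the level or activity of Dnmt3 genes or Uhrf1 in ESCs held wider differences. Of its 18 genes, 4 were more than 2-fold lower and 1 higher in the homologous array, 8 lower and 1 higher in the heterologous array, and 2 lower and 1 higher in the co-injection mean. The shares over all genes were 1.6%, 1.95% and 1.44% lower and 1.45%, 3.98% and 0.647% higher. The list medians were −0.43, −0.72 and −0.18. Prdm14, which represses the de novo methyltransferase genes, was at −2.07 for homologous, −2.53 for heterologous and −1.81 ± 0.078 (SD, n = 2) for co-injection cells. Tbx3, a factor of the naive state, was −3.04, −2.32 and −1.71 ± 0.086 (SD, n = 2) in that order. Klf4, another naive factor, was at −1.08 in the homologous and −1.43 in the heterologous array, and the nuclear receptor Esrrb at −1.18 in the heterologous array. Dppa3, which is known to keep Uhrf1 from chromatin, was at 1.94 for homologous and 1.76 ± 0.10 (SD, n = 2) for co-injection cells, but at −0.21 for heterologous cells. Dusp6, a phosphatase that ERK signalling induces, was 1.41 higher in the heterologous array, with 0.66 and 0.87 ± 0.17 (SD, n = 2) in the others. Since this list was drawn up with results of these data known, its counts are not independent evidence.

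Germ line genes that promoter methylation is known to silence were followed in the same way. Of 26 such genes, 10 were more than 2-fold lower in the homologous array, 10 in the heterologous array and 9 in the co-injection mean, and 1 was higher, Tdrkh at 1.07 in the heterologous array. Over all genes 1.6%, 1.95% and 1.44% were lower in these comparisons. The same 9 genes, named after their values were seen, were lower in all 3 comparisons: Dazl, Mael, Sycp1, Slc25a31, Stk31, Tex11, Tex19.1, Hormad1 and Sohlh2. The list medians were −0.63, −0.61 and −0.56, and 5, 3 and 8 of the 26 lay above parental ESCs. Sycp1, a structural protein of the synaptonemal complex, was at −2.58 for homologous, −2.08 for heterologous and −2.10 ± 0.034 (SD, n = 2) for co-injection cells, and Dazl, an RNA-binding protein of germ cells, −2.18, −2.03 and −2.22 ± 0.084 (SD, n = 2). The transposon-silencing gene Mael was −2.40 in the homologous array and Sohlh2, a factor of early germ cells, −2.10 in the heterologous array. At the other end of those past 2-fold were Taf7l (−1.04) and Hormad1 (−1.26) in the homologous array, Rpl10l (−1.25) in the heterologous array, and Hormad1 (−1.26) and Tex19.1 (−1.42) in the co-injection mean. Taf7l and Tex11 are X-linked, and without them 8, 9 and 8 of 24 genes were lower. These genes were lower in the same 4 arrays in which Dnmt3a was higher and Tet2 lower. All 3 comparisons share the parental array, and a link between the groups of genes was not tested. This list too was drawn up with results of these data known, so its counts are not independent evidence.

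**Figure D4:**
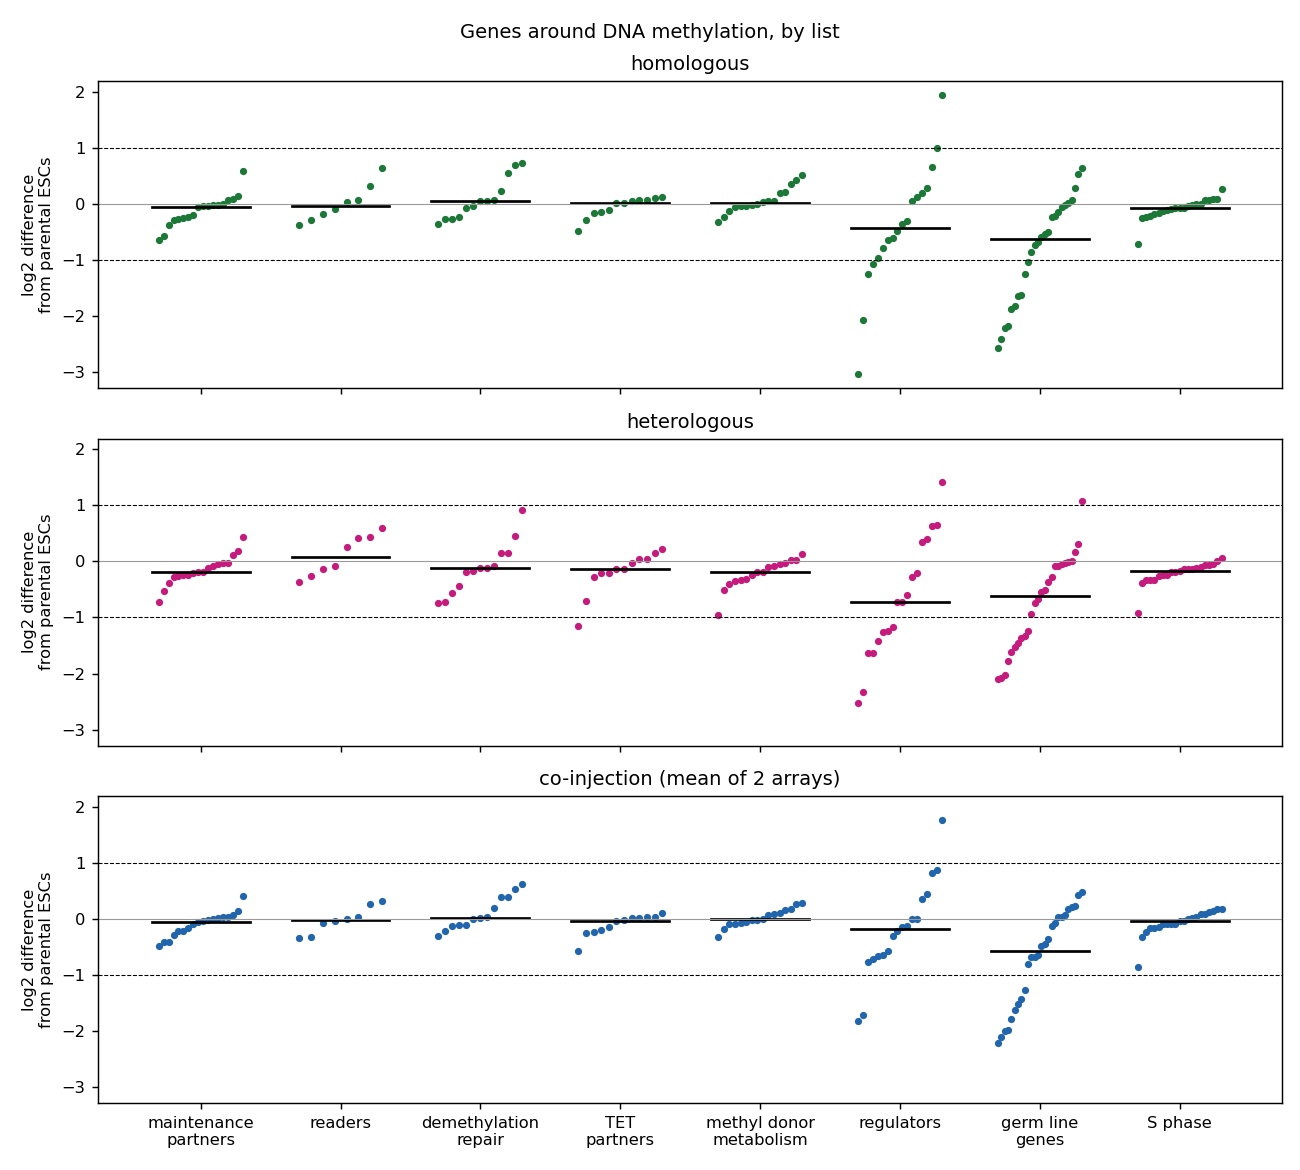
Log2 difference from parental ESCs (vertical axis) of the genes of each list (horizontal axis, 1 point per gene, sorted, with the median as a bar) in the homologous, heterologous and co-injection comparisons, with dashed lines at 2-fold. The regulators and the germ line genes reach far below the lower line, while the other lists stay within 2-fold but for Idh2 in the heterologous panel.

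Dnmt3a and Tet2 had a range above 1 over the 5 arrays, and the genes with the most similar pattern were sought for both among 11599 genes above the median of all values, by the Euclidean distance between the 5 values after each gene's mean was subtracted. Nearest to Dnmt3a were Gatm (distance 0.0756), Efna5 (0.169) and Rxrg (0.225). Gatm stood at 7.78 in parental ESCs, 8.90 in homologous cells, 9.22 in heterologous cells, and 9.15 and 9.07 in the co-injection arrays. Nearest to Tet2 were Agtrap (0.0572), Hdac6 (0.0750) and Ly75 (0.0874). Agtrap stood at 12.10 in parental ESCs, 11.20 in homologous cells, 10.98 in heterologous cells, and 11.28 and 11.33 in the co-injection arrays. With 5 arrays, such likeness describes the values only.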

How the data were processed

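Each of 5 RNA samples was measured on an Affymetrix Mouse Gene 1.0 ST array. Per the labels and the study's methods, the authors read the scans with GCOS, normalized them by RMA (quantile method) and deposited log2 values, with array medians from 7.48 to 7.54. For both tools the version is not given in the sources used here. Conditions were taken from the sample labels. The platform annotation gave the gene names, with exactly 1 symbol for 21789 of 35556 probe sets, and each gene was given by its brightest probe set. A difference is the log2 value in one condition minus that in another, with the mean of both arrays for co-injection. The members, lists and rules were chosen with earlier results of these data known. Named were all members, list genes past 2-fold against parental ESCs (where over 4 passed in a comparison, the 2 highest and the 2 lowest of them), and the 3 genes nearest in pattern to members whose range exceeded 1. Gene order and promoters are from RefSeq on GRCm38.p6. The array values carry no genome build.

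Alternatives were 1.5-fold and 3-fold thresholds, cyclic loess, centring, only bright genes, the mean of all probe sets of a gene, leaving out either co-injection array, 10 neighbours on each side, and limma with eBayes and Benjamini-Hochberg adjustment over 19938 genes. Both ways of calling genes were run on simulated data, in which all genes of like level had the same noise SD. That setting leaves out differences in spread between genes, so it does not tell how limma performs on the real values. Background correction and slide could not be varied, since no scanner output was used here. The number of arrays limits the precision. Python 3.11.15, numpy 2.4.6, pandas 2.3.3, matplotlib 3.10.9, R 4.3.3 and limma 3.58.1 were used.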

Additional observations from a re-analysis of the deposited data

Results flagged for a closer look

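Tet3 and Dppa3 pointed one way from parental ESCs in the heterologous array and the other way in the remaining ESC-like cells. The difference of Tet3 from parental ESCs was 0.0824 in the heterologous array, at −0.27 in the homologous array and at −0.13 in the co-injection mean, where both batches were below parental ESCs. Dppa3 was at −0.21 in the heterologous array, at 1.94 in the homologous array and at 1.76 in the co-injection mean, where both batches were above. By limma, heterologous minus homologous had an adjusted p of 0.146 for Tet3 and 0.118 for Dppa3, and co-injection minus heterologous 0.155 for Tet3 and 0.0975 for Dppa3, so none passed 0.05. The heterologous and homologous conditions have 1 array each, and the differences from parental ESCs share the parental array.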

How the results depend on the processing

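Each of the 3 comparisons with parental ESCs kept its count of members past 2-fold (1 homologous, 2 heterologous, 1 co-injection) under cyclic loess and centring, and for co-injection without either batch, where the count was 1 and 1. At 1.5-fold it was 3 in each comparison, where 9.51%, 13.2% and 6.91% of all genes passed, and at 3-fold it was 0 in each. With limma, which had 1 residual degree of freedom and 0.797 prior ones, 0 members and 0 of all 19938 genes passed an adjusted p of 0.05 in each of the 6 comparisons. At an unadjusted p of 0.05 it gave 5 members and 5888 genes in the homologous, 6 and 6842 in the heterologous and 5 and 5739 in the co-injection comparison. Among ESC-like cells it gave 3 and 5486 for heterologous against homologous, 4 and 6516 for co-injection against heterologous, and 1 and 3530 for co-injection against homologous. The lowest adjusted p of a member was 0.068 (limma), for Tet2 in the heterologous comparison. In the comparisons among ESC-like cells the count stayed at 0 under every alternative run. Keeping only bright genes leaves every member as it is, so it is no check. The mean of all probe sets kept the counts too, but Dnmt3a and Tet2 have 1 probe set each, so it is no check of these calls. Of the 108 recomputed member differences that a setting could move by more than the co-injection SD (cyclic loess, centring, and the mean of probe sets for Tet1 and Tet3), 40 did. Reversal was scored only for called differences. These settings moved the called ones by far less than a reversal needs, so the count of 0 reversed is no check. In all alternatives only Dnmt3l in co-injection against homologous cells (0.04) changed sign, in 2 settings, between −0.06 and 0.14. With 10 neighbours on each side in place of 20, the largest absolute median of neighbours over the 8 genes was 0.12 in place of 0.14 in the homologous, 0.084 in place of 0.12 in the heterologous and 0.11 in place of 0.076 in the co-injection comparison. The cause was not tested. The parental, homologous and heterologous arrays have no replicate, so their own error is not known.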

Other observations

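Outside the comparisons with parental ESCs, Gldc, a mitochondrial glycine-cleavage enzyme that feeds one-carbon metabolism, was the only one of the 16 methyl donor genes past 2-fold, and it was chosen after its values were seen. On the log2 scale the heterologous array minus the homologous array gave −1.38, and the co-injection mean minus the heterologous array 1.07. Against parental ESCs it was −0.95 in the heterologous array. Over all genes 0.647% were more than 2-fold lower in heterologous against homologous cells, and 0.361% higher in co-injection against heterologous cells.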
